A study of Saccharomyces cerevisiae with 24 samples.

Results

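The CUT_GIM features are cryptic transcripts, a class of short noncoding RNAs of budding yeast (*Saccharomyces cerevisiae*), and they were taken here as all features of that type in the annotation that accompanied the count table. They numbered 1315 of the 12289 features counted. A total of 909 had no coding gene on their own strand, and the other 406 shared at least 1 base with a coding gene on that strand. The 2 sets are given separately throughout, because a read that falls in a gene and in a transcript overlapping it appeared in both counts.

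Poly(A) RNA was sequenced with strand information from 3 strains at 2 times, giving 6 groups of 4 libraries. The strains were wt, dcp2-ideg, which carries an inducible degron on Dcp2, and lsm1-ideg, which carries one on Lsm1. An inducible degron is a tag through which an added compound sets off destruction of the tagged protein. T0 cultures were untreated, and T60 cultures of all 3 strains, wt included, had received 100 µM IAA (auxin) and 1 µM beta-oestradiol for 60 min. All cultures grew in YPD, a rich glucose medium. The labels give neither the amount of Dcp2 or Lsm1 protein left at T60 nor how many independent clones were used, and they do not say that replicates were separate cultures, so p-values measure the spread between these libraries, which may be technical.

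Cryptic unstable transcripts arise mostly from nucleosome-free regions, often as the divergent partner of an mRNA promoter or antisense to a gene. In wild-type cells the Nrd1-Nab3-Sen1 complex ends their transcription by binding short motifs in the nascent RNA, and the nuclear exosome, helped by the TRAMP polyadenylation complex, degrades them within the nucleus. Transcripts that escape to the cytoplasm are handled as mRNAs are: Dcp2, the catalytic subunit of the decapping enzyme, removes the cap, and the exonuclease Xrn1 degrades the body. The Lsm1-7 ring binds the 3' ends of deadenylated RNAs and stimulates decapping. XUTs are noncoding RNAs known by their accumulation without Xrn1, and SUTs are more stable noncoding RNAs.

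The sequences of 7 members show the features to which the results below refer. They were read 5′ to 3′ on the transcribed strand from the RefSeq R64 reference, which is the build sacCer3 of the count table, over the first 200 bases of the member or all of it where it is shorter. Capitals mark the 4-base motifs GTAA and GTAG, which Nrd1 recognises in RNA, and TCTT, which Nab3 recognises. The first 4 members rose in dcp2-ideg cells without a coding gene on their strand, and the fifth lies upstream of SER3. The last 2 fell and lie opposite a gene between its start and stop codons, a stretch that can include an intron.
CUT_GIM_0931 (chrXIII:770356-770513, minus strand): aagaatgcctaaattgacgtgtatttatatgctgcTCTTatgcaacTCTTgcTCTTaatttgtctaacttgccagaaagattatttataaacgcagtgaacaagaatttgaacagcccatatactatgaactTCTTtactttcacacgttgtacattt
CUT_GIM_0065 (chrV:271334-271533, minus strand): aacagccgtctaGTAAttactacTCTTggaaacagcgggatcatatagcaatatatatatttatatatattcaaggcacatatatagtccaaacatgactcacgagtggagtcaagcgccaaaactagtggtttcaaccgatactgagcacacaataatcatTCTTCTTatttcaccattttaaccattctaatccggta
CUT_GIM_0169 (chrVI:262942-263141, minus strand): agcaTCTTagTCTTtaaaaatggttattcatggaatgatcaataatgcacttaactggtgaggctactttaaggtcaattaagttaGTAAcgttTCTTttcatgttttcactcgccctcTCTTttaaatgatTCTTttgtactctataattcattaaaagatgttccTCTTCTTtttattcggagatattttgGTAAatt
CUT_GIM_0843 (chrXII:20710-20909, minus strand): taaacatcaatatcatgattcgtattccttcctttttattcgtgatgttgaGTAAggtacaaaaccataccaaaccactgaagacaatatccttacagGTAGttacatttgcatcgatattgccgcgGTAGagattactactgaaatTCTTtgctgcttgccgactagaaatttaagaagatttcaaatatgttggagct
CUT_GIM_0008 (chrV:322186-322385, plus strand): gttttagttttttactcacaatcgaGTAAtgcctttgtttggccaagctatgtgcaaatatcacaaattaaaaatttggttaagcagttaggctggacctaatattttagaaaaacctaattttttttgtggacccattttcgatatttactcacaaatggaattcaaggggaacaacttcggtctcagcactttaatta
CUT_GIM_0429 (chrXI:109526-109725, minus strand): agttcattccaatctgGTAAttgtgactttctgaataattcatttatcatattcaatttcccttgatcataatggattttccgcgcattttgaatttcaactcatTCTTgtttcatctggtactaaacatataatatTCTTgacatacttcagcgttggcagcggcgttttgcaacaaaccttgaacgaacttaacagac
CUT_GIM_0602 (chrXV:251476-251672, plus strand): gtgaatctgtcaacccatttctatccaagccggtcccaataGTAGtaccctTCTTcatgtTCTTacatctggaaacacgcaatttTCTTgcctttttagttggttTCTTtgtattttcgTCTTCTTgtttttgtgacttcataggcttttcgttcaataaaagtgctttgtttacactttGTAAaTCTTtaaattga

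These sequences are rich in A and T, with a GC content of 30.0% to 36.0%. CUT_GIM_0169 holds 2 Nrd1 and 7 Nab3 motifs, whereas CUT_GIM_0931 holds 4 Nab3 motifs and none for Nrd1, and CUT_GIM_0008 holds 1 Nrd1 motif and none for Nab3. Over all 909 members apart from coding genes, 75.8% had at least 1 copy of both motifs on the transcribed strand within 200 bases of their start (the window ran on past the end of shorter members). On the opposite strand of the same windows the share was 44.1%, so the strand that is transcribed held the pair more often. The share was 75.7% for CUT_S features, the second set of cryptic transcripts in the annotation, 59.3% for XUTs, 53.8% for SUTs, 42.5% for coding genes and 52.6% for all 12223 features with such a window. On their opposite strand coding genes stood at 68.2% and all features at 59.0%. Members with a coding gene on the opposite strand stood at 76.6% against 40.9% on that strand. The gap was smaller for members with no coding gene on either strand, at 73.8% against 52.3%. What part of the difference between strands comes from the gene opposite was not tested. Members overlapping a coding gene stood at 65.5%, with 60.3% on the opposite strand. Nrd1 and Nab3 motifs cannot overlap each other, though copies of TCTT can share a base, as can GTAG with a following GTAA or GTAG, and a match shows only that the letters occur.

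**Figure D1:**
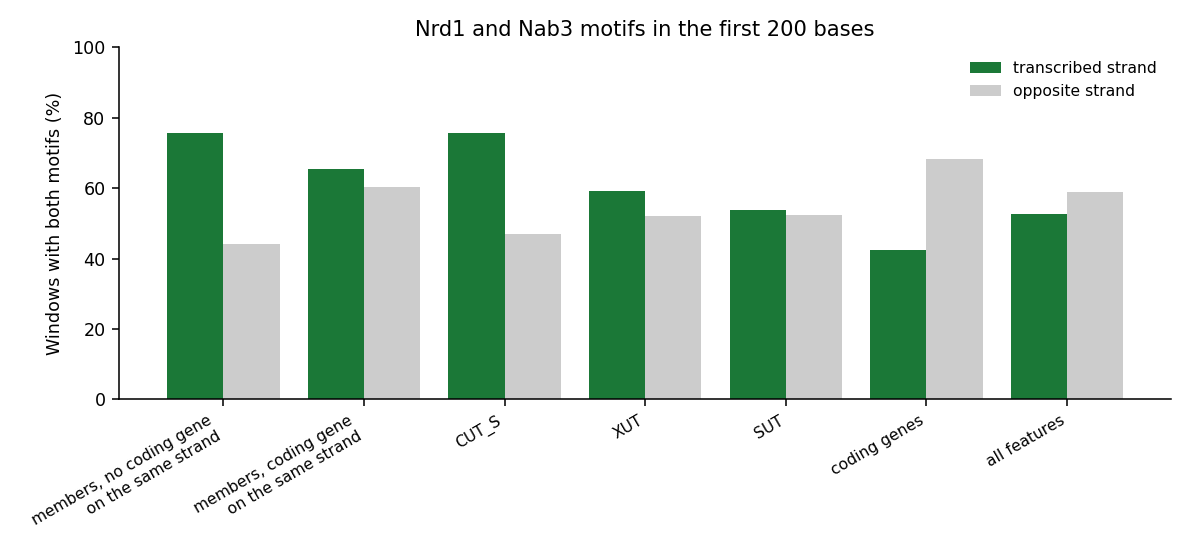
Share of features (in percent, vertical axis) whose first 200 bases hold at least 1 Nrd1 and 1 Nab3 motif, for CUT_GIM members without and with a coding gene on their strand and for other classes of feature. Green bars are the transcribed strand and grey bars its opposite; members apart from coding genes stand at 75.8% against 44.1%, and coding genes at 42.5% against 68.2%.

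Members were short and lay close to genes. Their median length was 280 bases, from 1 to 1101, and 43 were under 50 bases, so that a level per length of those few carries little meaning. Of the 909 members apart from coding genes, 653 ran antisense to a coding gene over at least 1 base and 256 had no coding gene on either strand. A coding gene that starts within 500 bases on the opposite strand was found for 665 of the 909. For 573 of these the 2 starts pointed away from each other without overlap, with a median gap of 210 bases (quartiles 166 and 267), as at a bidirectional promoter. The 406 members on the strand of a coding gene lay at its start in 253 cases, inside it in 97, at its end in 48 and across all of it in 8.

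Many members were also annotated under other names. Of the 909, 255 shared bases on their strand with an XUT, 143 with a SUT, 381 with a CUT_S and 161 with another member, while 263 had no other feature on their strand. Where members that overlap each other are counted once, the 909 make 831 separate places.

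Depth ran from 41.8 to 83.9 M counts per library with a median of 54.4 M. Scaling factors (TMM, which equalise the bulk of features between libraries) ran from 1.29 to 1.49 in dcp2-ideg at T60 and reached at most 1.01 elsewhere, so this group's values depend on the scaling more than the rest, and changes are given beside the median of all features. In a plot of the main axes of variation 2 libraries stood apart from their groups, dcp2-ideg T0 replicate 4 and wt T60 replicate 3. Counts of members without them are given beside the main comparison. DCP2 mRNA stood at 124 ± 29.3 CPM (TMM-scaled counts per M counts, mean ± SD, n = 4) in dcp2-ideg at T0 and 68.1 ± 13.2 at T60, and LSM1 mRNA in lsm1-ideg at 102 ± 2.03 and 87.8 ± 3.77 CPM, beside 144 ± 13.3 (DCP2) and 154 ± 6.25 (LSM1) in untreated wt. A degron acts on the protein, so these mRNA levels do not show how much protein was left. LSM1 means in lsm1-ideg at both times were below those of every other group (130 to 163 CPM). DCP2 mRNA did not set untreated dcp2-ideg apart from wt in this way. The reason for the lower LSM1 level was not tested. The a-cell gene STE2 was expressed at 298 to 732 CPM and the alpha-cell gene STE3 at 2.16 to 5.9 CPM over the 24 libraries. Other markers were less clearly split. The alpha-cell gene SAG1 reached 74.7 CPM, while the a-cell genes BAR1, MFA1 and MFA2 were lowest at 58.5, 37.7 and 93.6 CPM. In dcp2-ideg SAG1 went from 26.5 ± 9.69 to 62.8 ± 16.4 CPM (SD, n = 4). At T60 there BAR1 stood at 60.3 ± 2.42, MFA1 at 43.4 ± 4.13 and MFA2 at 169 ± 51.8 CPM. The labels state no mating type.

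In untreated wt cells the members apart from coding genes were scarce. Their median level was 0.587 CPM, or 31.5 counts per library, and 604 of the 909 (66.4%) lay under 1 CPM. Per kilobase the median was 1.97 CPM, against 25.4 CPM for members overlapping a coding gene. Members with no coding gene on either strand were the scarcer ones, at a median of 0.321 CPM against 0.692 CPM for those antisense to a gene. By level per kilobase the highest of at least 50 bases were CUT_GIM_0286, opposite the ribosomal protein gene RPL36B, with 70.9 ± 12.6 CPM, CUT_GIM_0240, opposite the ribosomal protein gene RPL42A, with 15.2 ± 3.93 CPM, and CUT_GIM_0070, divergent from the tryptophan synthesis gene TRP2, with 11.3 ± 1.89 CPM (SD, n = 4 each). Without the limit on length, members of 4 bases (CUT_GIM_0211), 1 base (CUT_GIM_0324) and 45 bases (CUT_GIM_0346) ranked among the first 5.

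Strand-specific libraries retain a small share of reads on the wrong strand, so the level of antisense members was set against that of the gene opposite. For the 96 members lying wholly opposite 1 coding gene of at least 100 CPM, the level per base was 5.10% of that gene's (quartiles 2.98% and 9.23%), and 76 of the 96 were under 10%. The values show counting by strand, and what part of the antisense counts came from the opposite gene was not tested.

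The first question was whether triggering the Dcp2 degron changes these transcripts. The summed counts on the 909 members apart from coding genes made up 0.112%, 0.131%, 0.120% and 0.155% of the 4 dcp2-ideg libraries at T0, and 0.225%, 0.257%, 0.224% and 0.292% at T60. All 4 treated libraries were above all 4 untreated ones, and the mean was 1.92 times as high. In wt the mean went from 0.122% ± 0.0117 to 0.125% ± 0.00145 (SD, n = 4), 1.03 times, and in lsm1-ideg from 0.113% ± 0.00667 to 0.142% ± 0.00295, 1.26 times, again without overlap of the 4 and 4 libraries.

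The ratio of T60 to T0 was larger where no coding gene lay on either strand. Counts on those 256 members went from 0.0291% ± 0.00525 to 0.0840% ± 0.0110 of dcp2-ideg libraries, 2.89 times, and counts on the 653 antisense members from 0.10% ± 0.0142 to 0.165% ± 0.0213, 1.65 times (SD, n = 4 each). Members overlapping a coding gene, whose counts include the gene's reads, went from 2.94% ± 0.0861 to 2.53% ± 0.136, 0.858 times. These shares are relative to the library total, and in bulk RNA a higher share cannot be told apart from a fall of the remaining RNA.

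**Figure D2:**
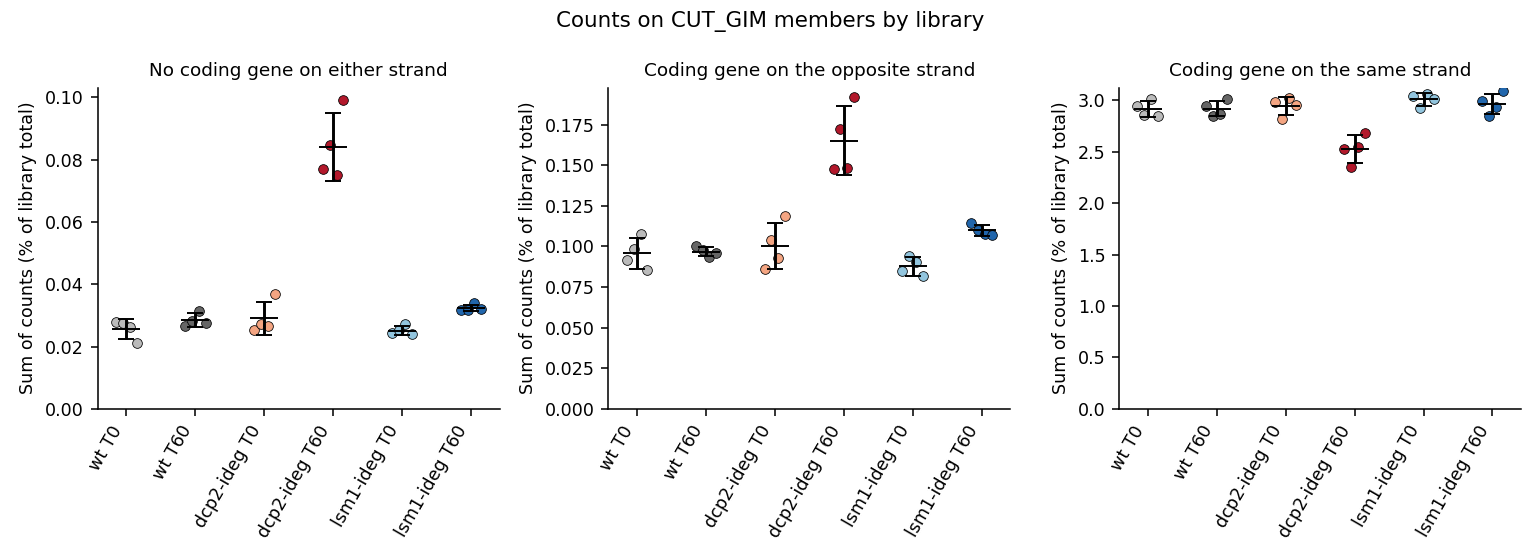
Summed counts on CUT_GIM members as percent of each library's total (vertical axis, starting at 0), in the 6 groups, for members with no coding gene on either strand, with one on the opposite strand only, and with one on the same strand. Points are libraries, bars the mean ± SD (n = 4); dcp2-ideg T60 stands highest in the first 2 panels (means 0.0840% and 0.165%) and lowest in the third (2.53%).

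Feature by feature, the dcp2-ideg change from T0 to T60 was set against the wt change in 1 model of all 24 libraries (edgeR quasi-likelihood test, Benjamini-Hochberg adjustment over 11776 features, call at an adjusted p under 0.05). Of the 909 members apart from coding genes 853 had enough counts to be tested, and 104 rose and 23 fell beyond wt. Over all features tested 18.5% rose and 15.9% fell, so the share of members that rose (12.2%) was below that background and the share that fell (2.70%) was further below it. Their median change was 0.465 on the log2 scale, against 0.073 for all features. CUT_S features without a coding gene on their strand were close to the members. Of 663 tested 13.9% rose and 1.96% fell, with a median of 0.487. By the same rule 47.1% of SUTs and 40.5% of XUTs rose. The 104 risers occupied 101 separate places, with changes from 0.63 to 7.06 and a median of 1.86 (log2). By size, 9 rose less than 2-fold, 53 between 2- and 4-fold, 27 between 4- and 8-fold and 15 more than 8-fold. Leaving out single libraries gave 93 to 127 risers and 15 to 29 fallers, with 127 and 24 without dcp2-ideg T0 replicate 4, 120 and 28 without wt T60 replicate 3, and the 15 fallers without dcp2-ideg T60 replicate 1. DESeq2 called 37 lower.

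Scaling moved these counts. Scaled to library totals, 212 members rose and 4 fell with a median of 0.973, where the median of all features was itself 0.573. Relative to all features, the members' median was 0.4 (log2) higher under that scaling and 0.392 higher with TMM. Calls also varied with abundance: of the 284 tested members with the lowest mean CPM 18 rose and none fell with a median change of 0.737, while of the 285 with the highest 59 rose and 22 fell with a median of 0.146.

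Counts were next split by the opposite strand, and the share of all features in this comparison (18.5% higher, 15.9% lower) applies to each split. With no coding gene on either strand, 49 of 219 tested members rose (22.4%) and none fell, with a median change of 0.941. With a coding gene on the opposite strand, 55 of 634 rose (8.68%) and 23 fell (3.63%), with a median of 0.245. Of the 104 risers 55 lay opposite a coding gene, as did all the fallers and 634 of the 853 members tested. Under DESeq2 1 member of the first group fell, and leaving out single libraries gave 44 to 60 risers and 0 to 1 fallers there and 46 to 67 and 15 to 28 opposite a gene. The difference between the 2 groups of members was not itself tested.

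Counts of risers and fallers also varied with the other features on the strand. Of 254 tested members that shared their strand with an XUT, 69 rose (27.2%) and 3 fell (1.18%), and the median change was 0.903, beside 0.922 for all 1657 XUTs tested, of which 667 rose and 21 fell. The reads of such a member and its XUT are partly the same. Of 254 tested members that shared their strand with a CUT_S and no XUT or SUT, 8 rose (3.15%) and 5 fell (1.97%), with a median of 0.143. Of 231 with no other feature on their strand 17 rose (7.36%) and 10 fell (4.33%). Among these, the 59 without an opposite coding gene held 12 risers and no faller with a median of 0.934, and the 172 opposite a coding gene held 5 risers and 10 fallers with a median of 0.032. Beside an XUT the median was 1.25 without and 0.745 with an opposite coding gene (88 and 166 tested).

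**Figure D3:**
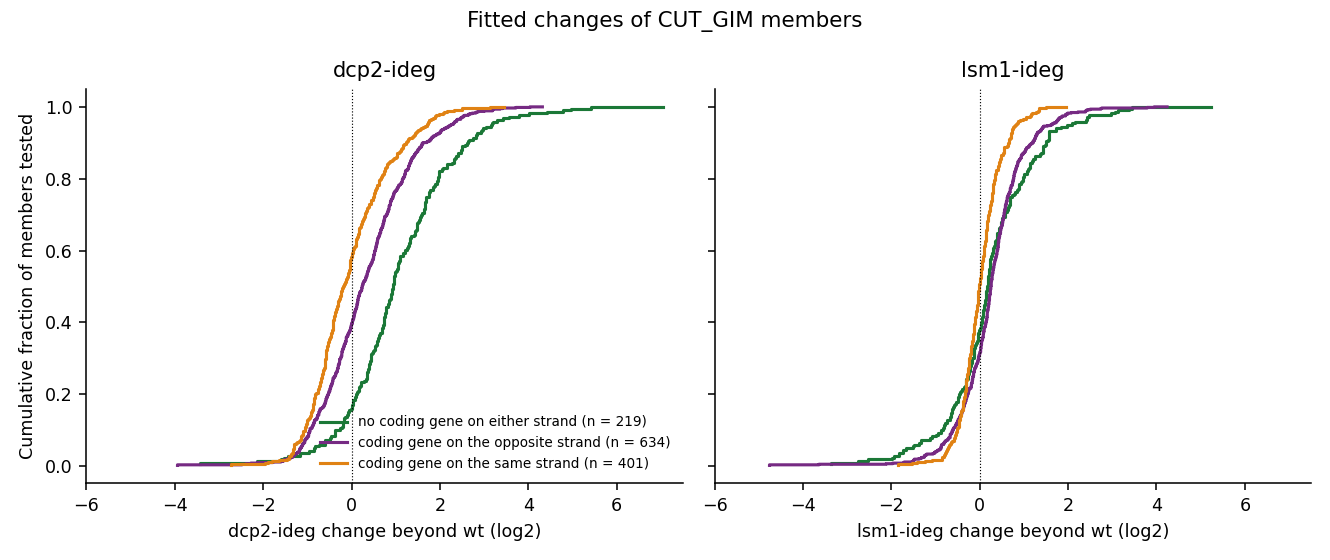
Cumulative fraction of tested CUT_GIM members (vertical axis) by fitted change from T0 to T60 beyond the wt change (log2, horizontal axis), in dcp2-ideg (left) and lsm1-ideg (right), for members with no coding gene on either strand (219), on the opposite strand only (634) and on the same strand (401). In dcp2-ideg the curve of members without a coding gene lies to the right of the others, with a median of 0.941 against 0.245 and -0.16; in lsm1-ideg the medians are 0.176, 0.255 and -0.01.

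The named risers are the 10 members with the largest change among those whose 4 treated libraries all lay above the 4 untreated ones, whose higher dcp2-ideg mean reached 1 CPM and whose call held without each single library. Of the 104 risers 93 had groups without overlap, and 58 met all conditions. In all 11776 features 24.9% had 4 dcp2-ideg T60 libraries above the 4 at T0, against 22.9% of the members.

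CUT_GIM_0699 was the most abundant of them. It lies on the minus strand at chrXV:521835-522634, runs antisense to RGS2 over 94.9% of its length (RGS2 is a regulator of glucose-dependent G protein signalling), starts 303 bases from the divergent start of LEU9, a leucine synthesis gene, and overlaps an XUT and a SUT. Its level was 3.86, 3.04, 3.66 and 3.24 CPM in the dcp2-ideg libraries at T0 and 29.2, 28.7, 25.4 and 33.0 CPM at T60. The 20 other libraries lay between 2.39 and 8.42 CPM, so that the treated dcp2-ideg libraries stood clear of all of them. The change beyond wt was 2.68 ± 0.32 (log2, SE; adjusted p = 6.73e-07, edgeR), whereas RGS2 mRNA changed by -0.10 ± 0.25 (adjusted p = 0.802, edgeR).

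CUT_GIM_0169, on chromosome VI with no coding gene on either strand, overlaps an XUT and a SUT. Its 4 dcp2-ideg libraries were at 1.78, 1.71, 1.13 and 2.01 CPM at T0 and at 8.75, 10.3, 9.3 and 7.19 CPM at T60, and the 20 libraries of all other groups lay between 1.13 and 2.85 CPM. The change was 2.51 ± 0.33 (log2, SE; adjusted p = 2.14e-06, edgeR). It lies within 20 kb of a chromosome end, where 5 of 28 tested members apart from coding genes rose and none fell, and where 192 of 520 features of all types rose and 15 fell.

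CUT_GIM_0931 starts 121 bases from the divergent start of GAD1, which encodes glutamate decarboxylase, and had the largest named change. GAD1 itself went from 23.8 ± 4.94 to 131 ± 14.2 CPM in dcp2-ideg (SD, n = 4), a rise of 2.44 ± 0.27 (log2, SE; adjusted p = 2.74e-07, edgeR). The member's level was 0.0735, 0.0376, 0.158 and 0.0418 CPM in dcp2-ideg at T0 and 1.42, 1.69, 1.16 and 0.869 CPM at T60, from 2 to 9 counts to 63 to 125 counts per library. No library of another group exceeded 0.455 CPM. The change was 3.78 ± 1.0 (log2, SE; adjusted p = 0.00459, edgeR), with a large error beside the few counts at T0.

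CUT_GIM_0065 is the named riser with no other feature on its strand, 198 bases from the divergent start of PET117, which is needed to assemble cytochrome c oxidase. It stood at 0.184, 0.188, 0.123 and 0.125 CPM in dcp2-ideg at T0 and at 1.04, 0.77, 1.4 and 0.882 CPM at T60. The wt libraries ranged from 0.0657 to 0.801 CPM, so that they overlapped the treated dcp2-ideg ones at 1 point. The change was 3.30 ± 0.79 (log2, SE; adjusted p = 0.002, edgeR).

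CUT_GIM_0843, of 995 bases, is antisense over 6.33% of its length to MMP1, a gene for S-methylmethionine uptake, and overlaps 2 XUTs. It went from 0.551, 0.732, 1.04 and 0.564 CPM to 6.0, 3.53, 6.5 and 4.45 CPM in dcp2-ideg, above the 1.37 CPM that no other library exceeded. It rose by 3.19 ± 0.64 (log2, SE; adjusted p = 0.000365, edgeR) while MMP1 fell by 1.78 ± 0.16 (adjusted p = 2.04e-08, edgeR).

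The other 5 named risers reached 1.24 to 2.90 CPM in dcp2-ideg at T60. Their means were 0.147 to 0.755 CPM in dcp2-ideg at T0 and 0.446 to 1.18 CPM in untreated wt. For each of them the dcp2-ideg mean at T0 was below that of untreated wt, and the wt mean was lower at T60. Both enlarge the change beyond wt, so the rise over untreated wt was smaller than the changes given here. CUT_GIM_1114 (3.42 ± 0.90 on the log2 scale) lies opposite the kinase gene PRR2, and CUT_GIM_1135 (3.20 ± 0.60) opposite the start of SSD1, which encodes an RNA-binding protein. Neither gene passed the test (0.16 ± 0.33 and 0.16 ± 0.30). Of the genes divergent from these 5, GDH2 (0.80 ± 0.16, at CUT_GIM_1114) and OPY2 (0.56 ± 0.20, at CUT_GIM_0308) rose and RPF1 (-0.91 ± 0.15, at CUT_GIM_1310) fell. CUT_GIM_1310 (2.87 ± 0.77) lies opposite RTC3, an mRNA that itself rose by 4.98 ± 0.21 (adjusted p = 2.9e-14, edgeR). RTC3 reached 178 ± 38.4 CPM at T60 against 1.9 ± 0.317 CPM for the member, and how much of the member's rise came from the opposite strand was not tested. CUT_GIM_0961 (2.82 ± 0.58) starts 135 bases from TRM12, a tRNA modification gene, and covers a serine tRNA gene, tS(AGA)M. CUT_GIM_0308 (2.65 ± 0.67) lies opposite YPR078C, a gene at 0.839 CPM in untreated wt.

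**Figure D4:**
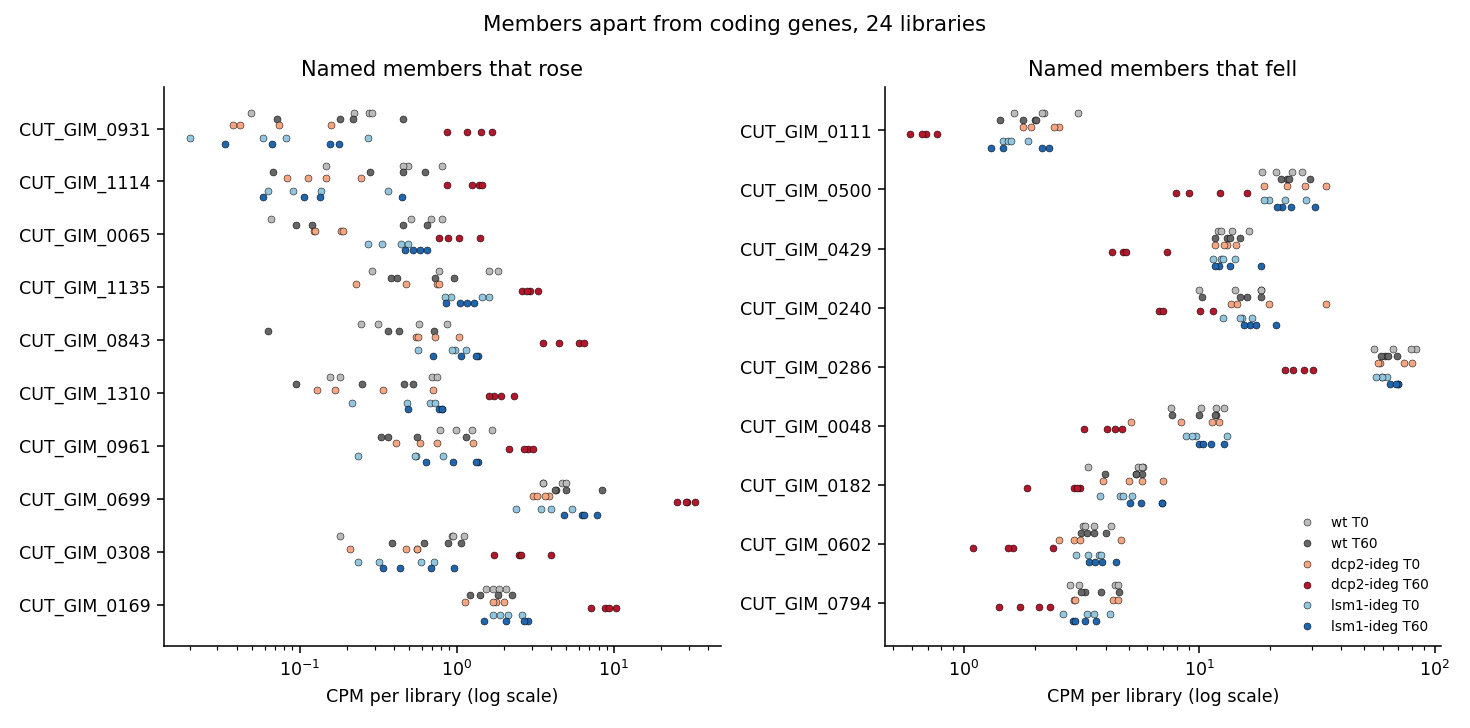
Level of the named members apart from coding genes in each of the 24 libraries (CPM, log scale, horizontal axis), with one row per member and one colour per group. The risers (left) have their 4 dcp2-ideg T60 libraries above the 4 at T0, the fallers (right) below them; 1 library without a count of CUT_GIM_0931 is drawn at 0.02 CPM.

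Larger fitted changes than these occurred at lower levels. CUT_GIM_0147, with no other feature on its strand and 414 bases from the divergent start of ADH5, had the largest of all at 7.06 ± 1.7 (log2, SE; adjusted p = 0.00165, edgeR), at a mean of 0.0923 CPM in dcp2-ideg at T0 and 0.672 CPM at T60. Its wt mean went from 0.125 to 0.00597 CPM, and a fitted change against so few counts depends on the small count that the fit adds. It was named after its value was seen.

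Most of the members apart from coding genes that fell lay opposite a gene that fell. All 23 lay opposite a coding gene, and for 20 of the 23 that gene was itself called lower, with a median change of -1.0 for the 23 genes. The other 3, named after their values were seen, were CUT_GIM_0003 (-0.74), CUT_GIM_0090 (-1.55) and CUT_GIM_1270 (-0.86), opposite genes at -0.30, 0.24 and -0.41 (log2). Their own changes ran from -0.72 to -1.78 with a median of -1.18 (log2). In untreated wt cells their level per base was 5.86% of the opposite gene's at the median (quartiles 3.75% and 9.52%), the range found above for all members opposite an abundant gene. For the 554 members not called opposite a coding gene, the gene was lower for 127 and higher for 73. Their level per base was 6.31% of the gene's (quartiles 3.8% and 11.8%), close to that of the fallers. The gene's median change was -0.154 (log2) for those not called. The gene's median level in untreated wt was 229 CPM for the fallers and 46.6 CPM for those not called. Abundant genes are easier to call, and genes of equal level were not compared. Of the 55 risers opposite a coding gene, the gene was higher for 13 and lower for 6, and the member's level per base was 15.9% of the gene's (quartiles 6.71% and 53.6%). How much of the signal of fallers or risers came from the gene's strand was not tested.

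By the same rule as for the risers 9 fallers were named, and 4 of them lie opposite ribosomal protein genes. CUT_GIM_0286, on the plus strand at chrXVI:75634-76103 opposite RPL36B, was at 58.3, 73.7, 57.4 and 80.2 CPM in dcp2-ideg at T0 and at 25, 27.9, 23 and 30.4 CPM at T60. The groups did not overlap, as the rule for naming required. The change was -1.18 ± 0.17 (log2, SE; adjusted p = 1.14e-05, edgeR), beside -1.07 ± 0.15 for RPL36B. CUT_GIM_0429, opposite RPL17A, went from 11.7, 13.1, 14.3 and 12.7 CPM to 4.24, 7.31, 4.72 and 4.86 CPM. By the same rule all 4 treated libraries lay below the untreated ones. The change of -1.26 ± 0.23 (adjusted p = 0.000133, edgeR) stood beside -1.04 ± 0.14 for RPL17A.

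CUT_GIM_0500, opposite RPS26A, changed by -1.32 ± 0.29 and CUT_GIM_0240, opposite RPL42A, by -1.18 ± 0.35, and the genes by -1.16 ± 0.14 and -1.18 ± 0.28 (log2, SE). The remaining 5 were CUT_GIM_0111 opposite IPP1, the inorganic pyrophosphatase gene (-1.34 ± 0.33), CUT_GIM_0048 opposite PAB1, the poly(A)-binding protein gene (-1.13 ± 0.31), CUT_GIM_0182 opposite NOP15 (-0.99 ± 0.29), CUT_GIM_0602 opposite NOP12 (-0.97 ± 0.30) and CUT_GIM_0794 opposite CDC42, a GTPase gene of cell polarity (-0.97 ± 0.30). NOP15 and NOP12 act in ribosome assembly. In all 9 cases the gene opposite was called lower too, by -0.76 to -1.18 (log2). Scaled to library totals the calls of CUT_GIM_0240, CUT_GIM_0048, CUT_GIM_0182, CUT_GIM_0602 and CUT_GIM_0794 were lost (adjusted p = 0.159, 0.095, 0.24, 0.212 and 0.246, edgeR), and with factors from coding genes alone CUT_GIM_0794 was lost (adjusted p = 0.0628, edgeR).

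**Figure D5:**
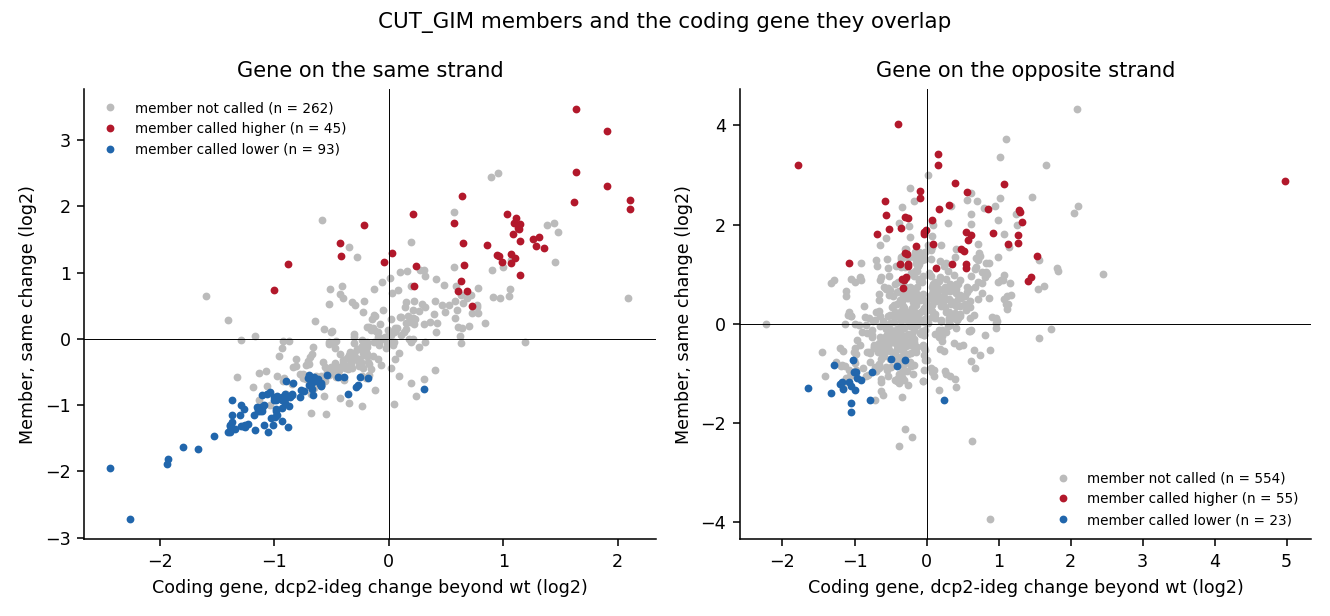
Change of each tested CUT_GIM member in dcp2-ideg beyond wt (log2, vertical axis) against that of the coding gene it overlaps (log2, horizontal axis), for genes on the same strand (left, 400 members) and on the opposite strand (right, 632 members). Grey members were not called, red were called higher and blue lower. On the left points follow the gene, and on the right most blue points lie where the gene fell.

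Genes divergent from a member were next compared with it. For 76 risers with a tested divergent gene, that gene was higher for 11 and lower for 21, with a median of -0.24, and for the 538 members not called it was higher for 41 and lower for 177, with a median of -0.30 (log2). Across 627 such pairs the correlation of the changes was r = 0.136, a description over pairs that share libraries.

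Motif content was compared between risers and the rest. Both the Nrd1 and the Nab3 motif stood in the first 200 bases of 74.0% of the 104 risers and of 75.3% of the 726 members tested and not called. The mean number of Nab3 motifs was 1.89 in the risers and 2.47 in those not called, and of Nrd1 motifs 1.92 and 2.20. Members beside an XUT had fewer Nab3 motifs than those without one, with means of 1.78 and 2.66. None of these differences was tested.

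Members overlapping a coding gene changed mostly in the direction of that gene. Of 401 tested, 45 rose (11.2%) and 93 fell (23.2%), against 18.5% and 15.9% of all features, with a median of -0.16. Scaled to library totals 97 rose and 35 fell, and the median became 0.323. For 83 of the 93 that fell the gene was called lower, and for 34 of the 45 that rose it was called higher. Over 400 pairs the correlation of the changes was r = 0.821, a description that includes shared reads.

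The largest named rise in this set was that of CUT_GIM_1308 (chrVIII:74214-75044, minus strand), in the first part of DUR3, which encodes a urea transporter. It went from 1.36, 1.37, 1.36 and 2.17 CPM in dcp2-ideg to 10.7, 13.7, 13 and 17.1 CPM, while no library of another group was above 2.3 CPM. The change was 3.46 ± 0.36 (log2, SE; adjusted p = 1.27e-07, edgeR), and DUR3 as a whole changed by 1.63 ± 0.17 (adjusted p = 9.88e-08, edgeR). CUT_GIM_0781, 13% of which lies in the start of the glycogen synthase gene GSY2, changed by 3.14 ± 0.42 and the gene by 1.91 ± 0.21. CUT_GIM_1261 at ECM12 (2.51 ± 0.50), CUT_GIM_0394 at DPC7 (2.31 ± 0.46) and CUT_GIM_1085 at APS2, a gene of the clathrin adaptor AP-2 (2.16 ± 0.39), also rose with their genes, which changed by 1.64 ± 0.22, 1.91 ± 0.58 and 0.64 ± 0.21.

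The largest named fall was that of CUT_GIM_0305 at the start of ALD6, the cytosolic aldehyde dehydrogenase gene, with -2.72 ± 0.44 (adjusted p = 3.34e-05, edgeR). It fell from 94.1 ± 27.2 to 22.5 ± 2.76 CPM in dcp2-ideg (SD, n = 4), and the change includes a wt T60 library at 261 CPM beside 3 at 74.1 to 105 CPM. Without that library the change was -2.14. CUT_GIM_0606 spans the whole of ZEO1, a plasma membrane protein gene, and both went from 877 ± 201 to 269 ± 32.8 CPM, with equal counts. CUT_GIM_0288 inside GLN1, the glutamine synthetase gene (-1.95 ± 0.26), CUT_GIM_0457 at MIG2, a glucose repressor gene (-1.81 ± 0.37), and CUT_GIM_0705 within YOR293C-A and opposite the ribosomal protein gene RPS10A (-1.89 ± 0.50) completed the named fallers.

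A few members lie where an upstream transcript is known to control the gene below it, and they were picked for that knowledge after the values had been seen. CUT_GIM_0008 begins upstream of SER3, a serine synthesis gene that is repressed by transcription of the noncoding SRG1 across its promoter, and overlaps the gene's start over 16% of its length. It stood at 30.6, 29.1, 33.3 and 45.4 CPM in dcp2-ideg at T0 and at 71.6, 59.7, 77.5 and 99.8 CPM at T60. All treated libraries were above all others of the study, and the change was 1.22 ± 0.24 (log2, SE; adjusted p = 0.000382, edgeR). SER3 itself rose by 1.11 ± 0.20 (adjusted p = 9.48e-05, edgeR), so that both rose in the same libraries.

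At IMD2, URA2, URA8 and ADE12 nucleotide supply selects between an early-terminated upstream transcript and the mRNA. The member at IMD2, CUT_GIM_1268, fell by 0.92 ± 0.31 (adjusted p = 0.0242, edgeR) while IMD2 fell by 1.37 ± 0.14. Its call was lost with totals (adjusted p = 0.31), with factors from coding genes (adjusted p = 0.0855) and, in edgeR, without wt T60 replicate 4 (adjusted p = 0.0609) or dcp2-ideg T60 replicate 2 (adjusted p = 0.0531). The members at URA2 (CUT_GIM_1053, -0.72 ± 0.47), URA8 (CUT_GIM_1001, 0.10 ± 0.31) and ADE12 (CUT_GIM_0196, -0.92 ± 0.48) did not pass the test. Nor did those inside NRD1 (CUT_GIM_0255, 0.24 ± 0.33, a feature of 4 bases) and HRP1 (CUT_GIM_0630, -0.24 ± 0.27). At both genes part of transcription is ended early by the Nrd1 pathway and its partners.

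Genes of the machinery that handles cryptic transcripts were followed in the same fit. Of 26 RNA decay and surveillance genes 12 fell beyond wt in dcp2-ideg and none rose, with a median of -0.41 (log2), where 27.4% of protein-coding features fell and 13.1% rose, with a median of -0.17. Among those that fell were MTR4, the helicase of the TRAMP complex, from 309 to 155 CPM (-1.06 ± 0.12), its poly(A) polymerase gene PAP2 (-0.69 ± 0.15), the nuclear exosome gene RRP6 (-0.57 ± 0.17) and the cap-binding genes STO1 (-0.77 ± 0.13) and CBC2 (-0.86 ± 0.18). NRD1 (0.42 ± 0.34), NAB3 (0.15 ± 0.32) and XRN1 (-0.10 ± 0.27) did not pass the test. Scaled to totals 1 of the 26 fell and 2 rose, and with factors from coding genes 6 fell, so the direction of the list depends on the scaling. What part these levels have in the changes of the members was not tested.

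In lsm1-ideg cells, compared with the same wt libraries, few members were called, as were few features of any type (0.212% in either direction). Few calls do not show that levels stayed the same. Beyond wt 1 of 853 members apart from coding genes rose and none fell, and 1 of 401 overlapping a gene rose and none fell, against 0.187% of all features higher and 0.0255% lower. All 4 lsm1-ideg T60 libraries lay above the 4 at T0 for 58 of the 853 (6.8%) and below for 1, against 7.14% and 9.03% of all features. At an unadjusted p under 0.05, 41 of the 853 were higher and 5 lower, and DESeq2 called 4 higher and none lower. The median change of the 853 was 0.236 (log2), against 0.026 for all features.

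The called member apart from coding genes, CUT_GIM_1062 (chrX:393520-393682, minus strand), lies wholly opposite RNR2, a ribonucleotide reductase gene, and starts 187 bases from the divergent start of RRN7. It was at 0.359, 0.766, 0.715 and 0.319 CPM in lsm1-ideg at T0 and at 4.76, 3.98, 2.94 and 2.51 CPM at T60, above every library of the other groups. The change was 2.40 ± 0.51 (adjusted p = 0.0463, edgeR), and it was lost at 15 of the 24 omissions of 1 library (adjusted p up to 0.101). RNR2 mRNA rose by 1.95 in the same cells (log2; adjusted p = 3.75e-08, edgeR). In dcp2-ideg RNR2 rose by 0.91 ± 0.16, and the member's change of 0.13 ± 0.51 did not pass the test.

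CUT_GIM_1100, inside AHA1, an Hsp90 co-chaperone gene, went from 26.3 ± 2.91 to 63.0 ± 4.96 CPM in lsm1-ideg (SD, n = 4), a change of 1.49 ± 0.19 (adjusted p = 8.09e-05, edgeR), and AHA1 changed by 1.28 (adjusted p = 8.09e-05, edgeR). In dcp2-ideg the member changed by 1.16 ± 0.19 (adjusted p = 3.76e-05, edgeR). The member's change did not differ between the strains past the threshold, with a difference of -0.33 ± 0.19 (log2, SE; adjusted p = 0.196, edgeR).

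The difference between the strains was tested directly, as dcp2-ideg minus lsm1-ideg of the changes over time. Of the 853 members apart from coding genes 69 changed more upward in dcp2-ideg and 42 more downward, against 15.2% and 13.3% of all features, with a median of 0.184 (log2). Leaving out single libraries gave 50 to 93 and 34 to 50. Of the 401 overlapping a gene 33 and 74 did, with a median of -0.185. CUT_GIM_0699 differed by 2.34 ± 0.32 (adjusted p = 6.75e-06, edgeR) and CUT_GIM_0169 by 2.30 ± 0.32 (adjusted p = 1.04e-05, edgeR). In lsm1-ideg they went from 3.82 ± 1.27 to 6.35 ± 1.22 CPM and from 2.08 ± 0.379 to 2.27 ± 0.617 CPM (SD, n = 4), and neither change passed the test beyond wt. CUT_GIM_0961 did not differ past the threshold (0.84 ± 0.57, adjusted p = 0.297, edgeR), and in lsm1-ideg it changed by 1.98 ± 0.58 (adjusted p = 0.208, edgeR).

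By size alone the 5 largest upward differences were CUT_GIM_0926 (5.76 ± 1.9), CUT_GIM_0931 (3.90 ± 1.1), CUT_GIM_0020 (3.89 ± 1.2), CUT_GIM_1246 (2.86 ± 0.79) and CUT_GIM_1114 (2.85 ± 0.94). CUT_GIM_0926 is 11 bases long and never exceeded 0.392 CPM, so its fitted value depends on the small count the fit adds. Without lsm1-ideg T0 replicate 3 the calls of CUT_GIM_0926 (adjusted p = 0.0638, edgeR) and CUT_GIM_1114 (adjusted p = 0.129, edgeR) were lost, the latter also without lsm1-ideg T60 replicate 4 (adjusted p = 0.051, edgeR), and that of CUT_GIM_0931 without lsm1-ideg T0 replicate 4 (adjusted p = 0.076, edgeR). The 5 largest downward ones all lay opposite coding genes: CUT_GIM_1062 (-2.27 ± 0.50, RNR2), CUT_GIM_0496 (-1.90 ± 0.63, EMP24), CUT_GIM_0111 (-1.83 ± 0.33, IPP1), CUT_GIM_0146 (-1.79 ± 0.43, KTR3) and CUT_GIM_0154 (-1.78 ± 0.33, RPL29). The call of CUT_GIM_0496 was lost without dcp2-ideg T0 replicate 4 (adjusted p = 0.0578, edgeR) and with totals (adjusted p = 0.0789, edgeR).

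Few or no members were called for treatment in wt or for strain before treatment. In wt, T60 against T0, edgeR called none of the 1254 members tested and 0.0% of all features in either direction, and DESeq2 called no member. At an unadjusted p under 0.05, 18 of the 853 apart from coding genes were higher and 24 lower, and the 4 treated libraries lay wholly above for 8 and below for 6, against 1.15% and 0.892% of all features. At T0 dcp2-ideg differed from wt in 1 member of each set, both higher, against 0.586% of features higher, 0.238% lower and 0.824% in all. CUT_GIM_0609, with no coding gene on either strand, was at 20.3 ± 1.33 CPM against 14.3 ± 1.08 in wt (SD, n = 4), and CUT_GIM_0021, inside PHM8, at 4.25 ± 2.33 against 1.39 ± 0.661 CPM. The latter was named after its value was seen.

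Neither T0 call was stable. That of CUT_GIM_0609 was lost at 19 of 24 omissions of 1 library (adjusted p up to 0.17, edgeR). That of CUT_GIM_0021 was lost at 4, among them dcp2-ideg T0 replicate 4 (adjusted p = 0.157, edgeR), whose value of 7.73 CPM lay above the 2.84 to 3.36 CPM of the other 3. Between lsm1-ideg and wt at T0 edgeR called no member, against 0.195% of features higher and 0.153% lower, with 12 of 853 higher and 42 lower at an unadjusted p under 0.05. DESeq2 called 1 lower among members apart from coding genes, and 1 higher and 1 lower among the others.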

How the data were processed

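Raw counts of reads per feature were deposited by the authors with the annotation they were counted on, and no column was left without a sample. STAR, featureCounts and sacCer3 are named per the submitters' processing notes, with versions and the strand option not given in the sources used here. Libraries were made by the dUTP method after poly(A) selection, per the labels' protocols. In 480 pairs of a member inside another feature of its strand the member never had the higher count, so a read seems to be counted in every feature it overlaps.

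Counts were tested with edgeR 4.0.16 (R 4.3.3): TMM scaling, filterByExpr (11776 of 12289 features kept), a quasi-likelihood fit of 24 libraries with 1 mean per group (18 residual degrees of freedom), Benjamini-Hochberg adjustment over all features tested. SEs were derived from the fitted change and its F value. Of 1315 members 61 were left out by the filter, 56 of them apart from coding genes, and 1 had no count. The fit was tested on simulated data. DESeq2 1.42.0, other scalings, filters, overlap rules, a replicate block and omission of each library were alternatives. Coding genes were features named with a leading Y and not typed dubious, and a divergent start was sought within 500 bases. Sequences came from RefSeq R64. No nuclear feature of the 12578 annotation lines reached past a reference chromosome, and 93.3% of 5874 coding sequences were contained in their namesake feature.

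Named members met the rule given in the text: 10 rises and 10 falls at most apart from coding genes and 5 each among the others, all members called in lsm1-ideg, the 5 largest differences between strains each way, up to 3 each way in the other comparisons, and the 5 highest levels per kilobase. Of members overlapping each other only the one with the larger change was named. Members, gene lists and tests were chosen with earlier results of these data known. Error bars and p-values rest on 4 libraries per group.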

Additional observations from a re-analysis of the deposited data

Results flagged for a closer look

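Among 300 groups of 4 libraries of the named members, 21 held a library far from the other 3 by Dixon's test, where chance flags about 1 in 20 groups. Of these, 4 were in dcp2-ideg T0 replicate 4: CUT_GIM_1308 was at 2.17 CPM beside 1.36 to 1.37, CUT_GIM_0394 at 3.49 beside 1.09 to 1.3, CUT_GIM_0021 at 7.73 beside 2.84 to 3.36, and CUT_GIM_0070 at 7.69 beside 13.6 to 14.7. CUT_GIM_0021 was also high in dcp2-ideg T60 replicate 4, at 13.7 CPM beside 6.67 to 7.16, and CUT_GIM_0154 there at 6.64 beside 4.84 to 4.98. In wt T60 replicate 3 CUT_GIM_0305 was at 261 CPM beside 74.1 to 105 and CUT_GIM_0781 at 0.582 beside 0.34 to 0.379.

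Single libraries also stood out in wt T0: CUT_GIM_0182 was low in replicate 4 (3.36 CPM) and CUT_GIM_1261 high there (1.11 CPM), CUT_GIM_0926 and CUT_GIM_0496 were high in replicate 2 (0.361 and 1.26 CPM) and CUT_GIM_0324 in replicate 3 (0.534 CPM). In dcp2-ideg T60 CUT_GIM_0182 was low in replicate 3 at 1.85 CPM. In lsm1-ideg T60 the lowest value lay apart for CUT_GIM_1310 in replicate 2 (0.489 CPM), CUT_GIM_0288 in replicate 3 (12.7 CPM), CUT_GIM_0496 in replicate 4 (0.667 CPM) and CUT_GIM_0255 in replicate 1 (6.19 CPM). The highest lay apart for CUT_GIM_0705 in replicate 1 (1.93 CPM), CUT_GIM_0926 in replicate 3 (0.0334 CPM) and CUT_GIM_0630 in replicate 4 (31.4 CPM).

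The 10 members named for a difference between dcp2-ideg and lsm1-ideg were chosen by the test of that difference, so their passing it was fixed by the choice. As given above, the calls of CUT_GIM_0926, CUT_GIM_0931, CUT_GIM_1114 and CUT_GIM_0496 were lost at the omission of certain single libraries. The change from T0 to T60 was more upward in dcp2-ideg for CUT_GIM_0926 (5.76, log2), CUT_GIM_0931 (3.90), CUT_GIM_0020 (3.89), CUT_GIM_1246 (2.86) and CUT_GIM_1114 (2.85). It was more downward for CUT_GIM_1062 (-2.27), CUT_GIM_0496 (-1.90), CUT_GIM_0111 (-1.83), CUT_GIM_0146 (-1.79) and CUT_GIM_0154 (-1.78).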

How the results depend on the processing

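Counts of members called are given as higher and lower. With scaling to library totals dcp2-ideg beyond wt gave 212 and 4 apart from coding genes (104 and 23 as reported), 85 and 0 with no coding gene on either strand, 127 and 4 opposite one, 120 and 1 beside an XUT, 97 and 35 overlapping a gene, and 2 and 1 decay genes. Against lsm1-ideg it gave 137 and 15 apart and 79 and 19 overlapping. In lsm1-ideg 2 overlapping members were higher, the apart call of dcp2-ideg at T0 became 0, and CUT_GIM_0630 turned to 0.287 (log2). With factors from coding genes 11 apart members were lower, 86 and 11 opposite a gene, 1 lower beside an XUT and 6 decay genes lower. The difference between strains gave 26 lower apart, lsm1-ideg 2 higher overlapping, and dcp2-ideg at T0 0 higher apart and 1 lower overlapping.

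DESeq2 called 37 lower apart, 1 lower with no coding gene on either strand and 36 opposite one. It called 4 higher apart and 4 higher and 1 lower overlapping in lsm1-ideg, 2 and 2 overlapping in dcp2-ideg at T0, and 1 lower apart and 1 higher and 1 lower overlapping in lsm1-ideg at T0. Fitting only the groups compared gave 15 lower apart, all opposite a gene, 0 calls of dcp2-ideg at T0 in either set and 1 higher overlapping in lsm1-ideg at T0. Without a filter the apart call of dcp2-ideg at T0 became 0, and with at least 1 CPM in 4 libraries lsm1-ideg had 2 higher overlapping. Where a gene had to cover 50% of a member, 44 were lower apart and 27 higher overlapping (19 against lsm1-ideg). With reference coding sequences they were 40 and 27 (17).

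Over all groups the replicate numbers did not meet the rule for pairing (every correlation of deviations over 0.1): 60 same-numbered pairs ran from -0.313 to 0.632 (median 0.068, others -0.022). Between T0 and T60 they were 0.152 to 0.632 in dcp2-ideg, 0.067 to 0.152 in lsm1-ideg and -0.028 to 0.07 in wt, and 20 of 24 libraries correlated best with their own number. With a replicate block dcp2-ideg gave 114 and 25 apart and 51 and 98 overlapping, lsm1-ideg 1 and 0 apart and 2 and 1 overlapping, dcp2-ideg at T0 2 higher overlapping, and lsm1-ideg at T0 1 lower apart and 1 higher overlapping.

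Omitting each library in turn gave 93 to 127 higher and 15 to 29 lower apart, and 40 to 49 and 80 to 108 overlapping. With no coding gene on either strand it gave 44 to 60 and 0 to 1, opposite one 46 to 67 and 15 to 28, beside an XUT 60 to 81 and 2 to 4, and 10 to 14 decay genes lower. Against lsm1-ideg it gave 50 to 93 and 34 to 50 apart, and 23 to 35 and 65 to 92 overlapping. In lsm1-ideg it gave 0 to 1 higher apart, and 1 to 2 and 0 to 1 overlapping. At T0 dcp2-ideg gave 0 to 1 higher apart, and 0 to 2 and 0 to 1 overlapping, and lsm1-ideg 0 to 1 lower apart and 0 to 1 higher overlapping. CUT_GIM_1001 ranged from -0.082 to 0.265 (log2), below 0 without wt T60 replicate 3 and, at -0.012, without wt T0 replicate 4. The causes were not tested. The median member apart from coding genes had 31.5 counts per untreated wt library, which limits the precision for scarce members.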
